A study of Mus musculus with 16 samples.

Results

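The 9 genes examined encode hepatocyte transcription factors and nuclear receptors of mouse liver: Hnf4a, Foxa2, Foxa3, Cebpa, Cebpb, Nr1h4, Nr1i2, Nr1i3 and Ppara. They were taken by gene name from a table of 57010 genes, in which each of the 9 names stood on 1 row, and all 9 belonged to the 11766 genes tested, whose level averaged 1 TPM or more over the 16 libraries (TPM, the share of a library's transcripts scaled to parts of a fixed total). Wild-type male C57BL/6J mice, aged 8 to 12 weeks, were given cadmium (Cd), selenium (Se), both or neither, and poly(A)-selected RNA of whole liver was sequenced. The control group (mice 27 to 30) received neither agent. The Cd group (mice 1, 2, 5 and 6) received CdCl2 at 1.25 mg/kg by a daily intraperitoneal injection over 7 days. The Se group (mice 39, 40, 41 and 44) was fed selenomethionine (SeMet) at 2 ppm for 3 months, and the Cd+Se group (mice 13 to 16) received that diet with the same injections in its last 7 days. The sources used here do not say what the mice without Cd were injected with, or what Se the unsupplemented diet held. The question put to these genes was how the network of liver regulators differed with Cd, and whether mice given Se beside Cd differed from mice given Cd alone.

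Hepatocytes hold their identity through a small circuit of transcription factors that bind each other's genes as well as those for plasma proteins and metabolic enzymes. HNF4A sits at its centre, FOXA2 and FOXA3 are pioneer factors that open liver chromatin, and C/EBPα and C/EBPβ drive metabolic and acute-phase genes. HNF4A is itself a nuclear receptor that binds DNA as a homodimer, whereas the other 4 nuclear receptors of the set are ligand sensors that bind DNA with the retinoid X receptor: FXR (Nr1h4) senses bile acids, PXR (Nr1i2) and CAR (Nr1i3) sense drugs and other foreign compounds, and PPARα (Ppara) senses fatty acids and turns on their oxidation in fasting.

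The values were TPM, which are scaled to 1 total per library and per transcript length, so that levels can be compared between genes while the sequencing depth is not kept. All Cd and Cd+Se libraries carried the metallothionein transcript Mt1, which Cd induces, at 3178 to 6070 TPM against 50.9 to 431 TPM in the other 8 libraries. Hepatocyte markers (10 genes, Alb and Ttr among them) summed to 69920 to 89940 TPM in control, 50180 to 78010 in Cd, 65020 to 81930 in Cd+Se and 69310 to 123100 in Se mice. Most of this sum was Alb (52070 ± 8175 TPM in control and 33210 ± 9696 in Cd mice, limma adjusted p = 0.056), and the median log2 fold change of the 10 markers in Cd against control was 0.08. Cd mouse 5 stood apart from its group, with mitochondrial transcripts at 22.2% of its TPM and a median log2(TPM + 1) of 2.68, whereas the other 15 libraries lay between 2.90 and 3.36. The library of Cd+Se mouse 15 lay farther from the rest of its group than any other Cd+Se library, with a root mean square difference of 0.52 on the log2 scale. Se mouse 40 lay as far from the rest of the Se group, at 0.52, and had the highest median, 3.36. In bulk liver, fewer hepatocytes and less of a transcript per hepatocyte cannot be told apart.

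In control liver the set spanned a range from Cebpa, at 166 ± 12.1 TPM (SD, n = 4), down to Foxa2, at 8.77 ± 2.42. Cebpa, Hnf4a (152 ± 10.98), Nr1i3 (132 ± 16.9) and Nr1h4 (119 ± 13.4) formed the upper end, where each overlapped its neighbour in range. A gap followed, and then came Foxa3 (48.2 ± 9.54) and Ppara (41.2 ± 5.10), whose ranges overlapped. Below these, Nr1i2 (29.6 ± 1.76), Cebpb (20.1 ± 4.25) and Foxa2 did not overlap one another in any control mouse. Cebpa exceeded 95.4% of the genes tested in control mice and Foxa2 exceeded 52.6%. With Cd the order changed in its middle: Nr1i3 (122 ± 20.1) stood above Hnf4a with no overlap, and Nr1i2 (27.3 ± 4.09) stood above Foxa3, Cebpb and Ppara, with overlap between neighbours.

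**Figure D1:**
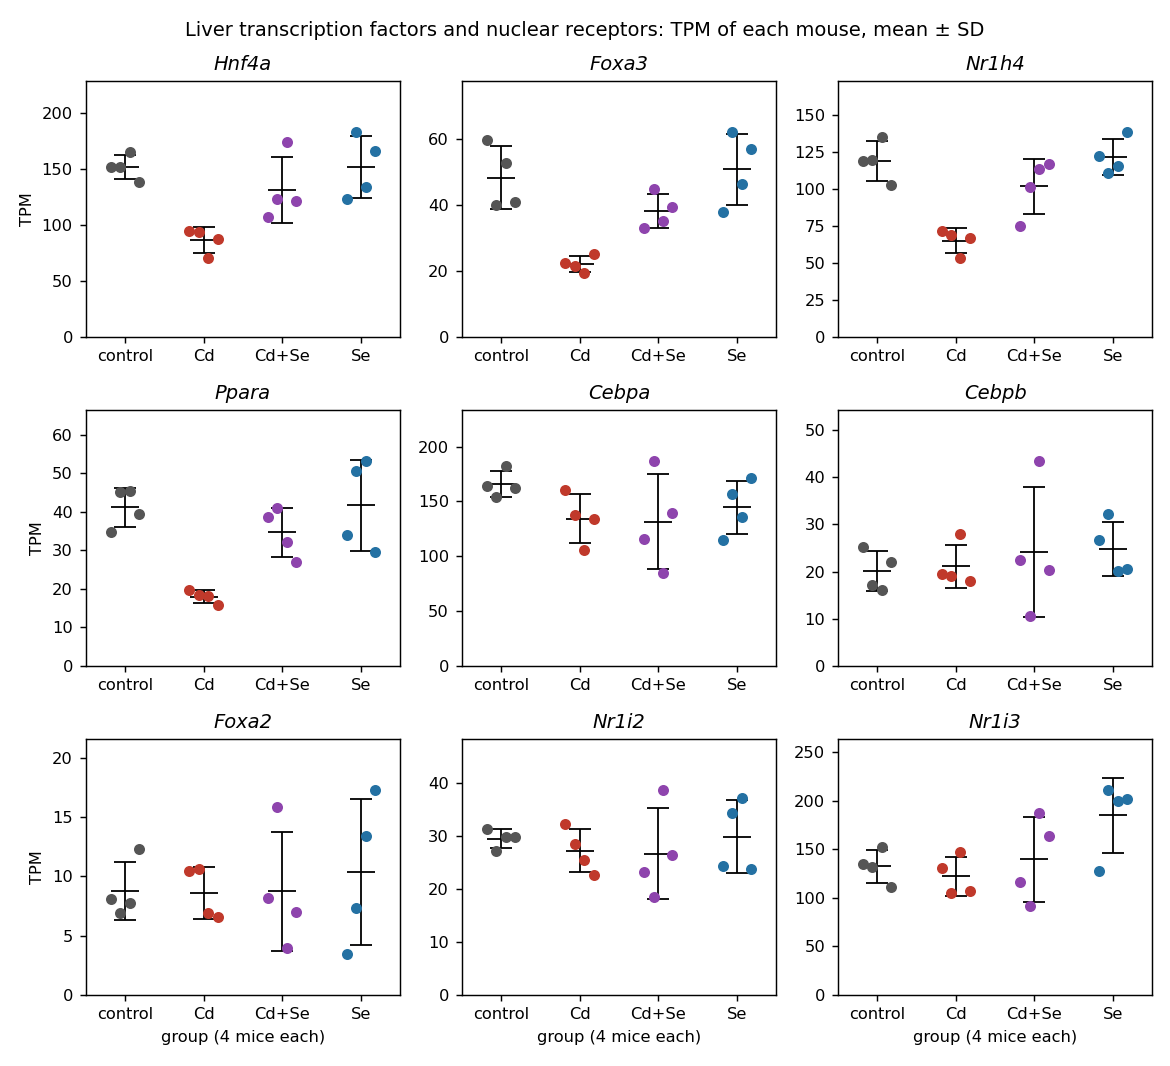
TPM of the 9 genes (y axis, from 0 in each panel) in each of the 16 mice by group (x axis). Points are mice and black marks give mean ± SD over 4 mice. In the panels of Hnf4a, Foxa3, Nr1h4 and Ppara the Cd mice lie below every mouse of the other 3 groups, and in the other 5 panels the groups overlap.

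With Cd alone, Hnf4a, Foxa3, Nr1h4 and Ppara fell to between 43.6% and 57.0% of their control means, and Cebpa, Cebpb, Foxa2, Nr1i2 and Nr1i3 did not pass the test. Thus 4 of the 9 fell and 0 rose in limma at an adjusted p under 0.05, where 24.9% of all genes tested fell and 30.8% changed in either direction. Falls made up 81.1% of all calls, but 57.1% after quantile normalization and 44.4% after median centring of the libraries, so that the balance over all genes rested on the scaling while the 4 genes fell under each. The same 4 genes had no overlap between the Cd and the control mice, a pattern that 27.8% of all genes tested showed in this direction. A fall was therefore common among liver transcripts in this comparison, whose median log2 fold change over all genes was -0.17 (-0.01 after quantile normalization, 0.05 after centring), and the 4 falls were larger than that of most genes: 5.59% of the genes tested had a lower value than Hnf4a, 4.31% than Nr1h4, 1.78% than Foxa3 and 1.39% than Ppara.

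Hnf4a (ENSMUSG00000017950, chr2:163506808-163572910, plus strand; all gene positions are from GENCODE M21, build GRCm38) encodes the nuclear receptor that many hepatocyte promoters need. It was at 152, 152, 165 and 138 TPM in control mice 27 to 30, and at 94.7, 94.0, 70.1 and 87.6 TPM in Cd mice 1, 2, 5 and 6. In Cd+Se mice 13 to 16 it was at 107, 123, 174 and 122 TPM, and in Se mice 39, 40, 41 and 44 at 123, 183, 134 and 166 TPM. The highest Cd mouse was thus below the lowest mouse of each other group. On the scale of log2(TPM + 1), on which all fold changes are given, Cd minus control was -0.81 ± 0.16 (SE; adjusted p = 0.00173 in limma). The antisense gene Hnf4aos, whose reads cannot be told apart from those of Hnf4a where strand is not kept, was at 0.30 to 5.55 TPM.

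Foxa3 (ENSMUSG00000040891, chr7:19013284-19023538, minus strand) stood above Foxa2 in every mouse, and its product binds many of the sites of FOXA1 and FOXA2. Control mice had 59.6, 39.8, 52.6 and 40.9 TPM and Cd mice 22.2, 21.3, 19.3 and 25.1 TPM, in the order of mice used above. Cd+Se mice had 32.99, 44.6, 34.98 and 39.3 TPM and Se mice 37.7, 62.0, 46.2 and 56.9 TPM. The Cd mice were separate from all others, whereas the Cd+Se mice overlapped the control and Se mice. Cd minus control came to -1.09 ± 0.16 in log2 units (SE; adjusted p = 0.00041 in limma).

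Nr1h4 (ENSMUSG00000047638, chr10:89454234-89533585, minus strand) encodes FXR, which represses bile acid synthesis when bile acids are high. Its TPM were 119, 120, 135 and 102 in control mice and 71.8, 68.7, 53.0 and 66.7 in Cd mice. They were 75.2, 102, 113 and 117 in Cd+Se mice and 122, 111, 115 and 138 in Se mice. Cd+Se mouse 13 was just above the highest Cd mouse, mouse 14 was just below the lowest control mouse, and mice 15 and 16 were within the control range. The difference of Cd from control was -0.86 ± 0.14 (log2, SE; adjusted p = 0.000718 in limma).

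Ppara (ENSMUSG00000022383, chr15:85734983-85802819, plus strand) had the largest fall of the set. The control mice were at 34.7, 45.2, 45.3 and 39.5 TPM and the Cd mice at 19.7, 18.4, 18.01 and 15.7 TPM. The Cd+Se mice were at 38.6, 40.8, 32.0 and 26.9 TPM and the Se mice at 33.8, 50.5, 53.1 and 29.5 TPM. Here too no Cd mouse reached the range of another group, and the Se mice fell into a higher and a lower pair. The log2 difference between Cd and control mice was -1.15 ± 0.18 (SE; adjusted p = 0.000479 in limma). Each of these 4 falls passed the threshold in all 25 alternative settings, among them the omission of Cd mouse 5, and the values under quantile normalization and median centring of the libraries ran from -0.59 for Hnf4a to -1.004 for Ppara. Many of the 25 could not move the estimate itself. Leaving out only Se or Cd+Se mice, another filter, no trend or only the groups compared altered its spread or the adjustment alone.

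The other 5 genes showed smaller differences in Cd against control, none of which passed the test. Cebpa (ENSMUSG00000034957, chr7:35119293-35121928), the C/EBP gene of resting metabolic liver, was at 164, 154, 183 and 162 TPM in control mice and at 160, 138, 105 and 134 TPM in Cd mice. Of the 4 Cd mice, 3 were below all control mice and mouse 1 was within their range (log2 fold change -0.31, 95% confidence interval -0.73 to 0.11, limma adjusted p = 0.241). Cebpb (ENSMUSG00000056501, chr2:167688915-167690418), the C/EBP gene of the acute-phase response and regeneration, was at 25.1, 17.1, 16.1 and 22.1 TPM in control mice and at 19.6, 19.1, 27.9 and 18.02 TPM in Cd mice. The ranges overlapped, with a log2 fold change of 0.07 and an interval of -0.56 to 0.71.

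Foxa2 (ENSMUSG00000037025, chr2:148042877-148046969), needed for bile acid and glucose homeostasis in liver, was at 8.06, 6.93, 7.76 and 12.3 TPM in control mice and at 10.4, 10.6, 6.92 and 6.54 TPM in Cd mice. Its interval was the widest of the set, from -0.85 to 0.81 around -0.02, so that a change in Foxa2 as large as the Hnf4a fall lay within it. Nr1i2 (ENSMUSG00000022809, chr16:38248323-38294824), which encodes PXR, was at 31.4, 27.2, 29.95 and 29.8 TPM in control mice and at 32.3, 28.5, 25.6 and 22.7 TPM in Cd mice. Nr1i3 (ENSMUSG00000005677, chr1:171213970-171220701), which encodes CAR, was at 135, 132, 152 and 111 TPM in control mice and at 131, 105, 147 and 107 TPM in Cd mice. The intervals of these receptors, -0.53 to 0.28 for Nr1i2 and -0.56 to 0.33 for Nr1i3, both lay above the Hnf4a estimate of -0.81. They overlapped the Hnf4a interval of -1.14 to -0.48, and no difference between genes was tested. The direction of the Foxa2, Nr1i2 and Nr1i3 differences turned under at least 1 other scaling of the libraries.

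**Figure D2:**
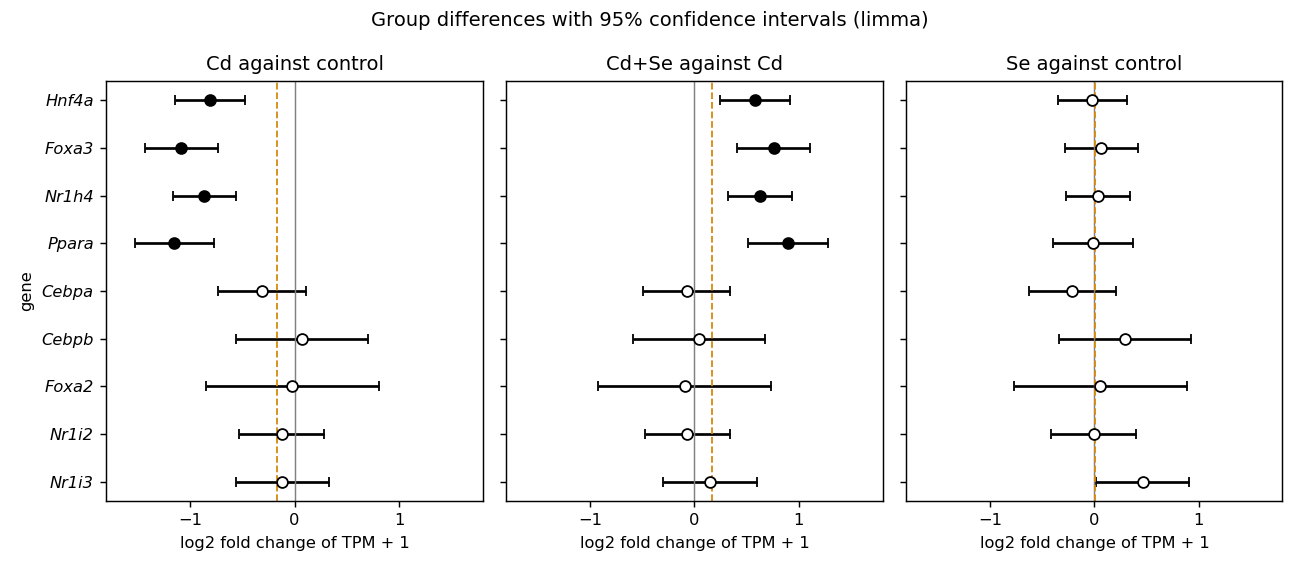
Log2 fold change of TPM + 1 (x axis) of each gene (y axis) in 3 comparisons, with 95% confidence intervals from limma. Filled points have an adjusted p under 0.05, the grey line is 0 and the dashed line is the median of all genes tested. The 4 filled points on the left, Hnf4a, Foxa3, Nr1h4 and Ppara, are those filled on the right side of 0 in Cd+Se against Cd, and no point is filled in Se against control.

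The sequences before the start sites are shown for 3 of the 4 genes that fell together, to let their proximal promoters be compared. They are RefSeq promoters of build GRCm38.p6, which matched all 9 genes with 12 start sites, read over 250 bases before the start on the strand of the gene. Stretches that GENCODE annotates as exon were cut away from the printed sequences only, and the window of Ppara is not printed because 150 of its 250 bases lie in annotated exons. Motifs and G and C content were read over all 250 bases of each window, annotated exons included. Capitals mark 4 motifs that were searched on both strands. The TATA box, where the basal machinery binds, was spelled TATAAA and the GC box, where Sp1-type factors bind, was spelled GGGCGG. The core that HNF1 factors bind was spelled GTTAAT and the core that nuclear receptors bind was spelled AGGTCA. For Hnf4a the downstream start, at the promoter used in adult liver, is given as chr2:163546943-163547154 (plus strand), for Foxa3 chr7:19023540-19023789 (minus strand) and for Nr1h4 chr10:89506659-89506908 (minus strand). The Nr1h4 window lies inside the annotated gene, before an internal start, and not at its upstream end.
Hnf4a: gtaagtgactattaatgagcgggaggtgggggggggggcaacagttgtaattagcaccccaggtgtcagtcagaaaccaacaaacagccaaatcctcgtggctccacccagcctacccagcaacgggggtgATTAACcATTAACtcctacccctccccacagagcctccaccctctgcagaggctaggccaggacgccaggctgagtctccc
Foxa3: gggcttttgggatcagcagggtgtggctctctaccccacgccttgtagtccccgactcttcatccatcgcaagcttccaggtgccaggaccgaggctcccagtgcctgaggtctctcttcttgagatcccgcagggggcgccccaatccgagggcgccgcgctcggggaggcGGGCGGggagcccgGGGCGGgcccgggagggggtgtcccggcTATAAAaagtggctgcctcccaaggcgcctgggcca
Nr1h4: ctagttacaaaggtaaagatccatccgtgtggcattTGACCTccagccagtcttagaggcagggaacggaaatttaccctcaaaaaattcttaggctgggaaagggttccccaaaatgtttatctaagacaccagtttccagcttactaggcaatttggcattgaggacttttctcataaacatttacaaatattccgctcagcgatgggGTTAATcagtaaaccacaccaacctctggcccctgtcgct

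The 3 windows did not share one composition: G and C made up 57.6% of the Hnf4a window, 68.8% of that of Foxa3 and 44.4% of that of Nr1h4, against a median of 52.4% over 32851 mouse promoters. The Hnf4a window held the HNF1 core at 81 to 76 and again at 74 to 69 bases before the start, and the Nr1h4 window held it at 40 to 35 bases. This core was in 6.43% of all promoter windows, and among the other members it was found in the window of 1 of the 3 Foxa2 starts. Foxa3 had a TATA box at 36 to 31 bases, a motif of 12.4% of all windows that was also in those of Cebpa, at 30 to 25 bases, and of 1 Foxa2 start. GC boxes, in 32.7% of all windows, were in those of Foxa3, Ppara and the upstream start of Hnf4a and, among genes that did not pass the test, in that of Cebpb and in 2 of the 3 of Foxa2. The nuclear receptor core, in 4607 of the 32851 windows, was present for Nr1h4 alone among the 9 genes. None of the 4 motifs was in the windows of all 4 genes that fell, and a match in these letters is not evidence of binding.

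In Cd+Se against Cd, the comparison that asks what Se changed in mice given Cd, the same 4 genes were higher and the other 5 did not pass the test. The ratio of the Cd+Se to the Cd mean was 1.52 for Hnf4a, 1.56 for Nr1h4, 1.73 for Foxa3 and 1.93 for Ppara. Of all genes tested, 13.6% were higher and 15.9% changed in either direction, and 16.1% had every Cd+Se mouse above every Cd mouse, as these 4 did. Of all calls 14.7% were falls, against 43.7% after quantile normalization and 57.6% after median centring, and the 4 genes were higher under each. Because both comparisons use the same 4 Cd mice, a low value in those mice enters both, and the 4 of 4 shared genes are no separate evidence. In log2 units (± SE) the differences were 0.58 ± 0.16 for Hnf4a (limma, adjusted p = 0.0239), 0.63 ± 0.14 for Nr1h4 (adjusted p = 0.0139), 0.76 ± 0.16 for Foxa3 (adjusted p = 0.0111) and 0.90 ± 0.18 for Ppara (adjusted p = 0.00787), beside a median of 0.17 over all genes.

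These calls were weaker than those of Cd against control. When the spread was estimated from the Cd and Cd+Se mice alone, Foxa3 (limma adjusted p = 0.0488) and Ppara (0.0481) still passed while Hnf4a (0.0828) and Nr1h4 (0.0734) did not, and 0.561% of all genes were called. In limma Hnf4a also missed the threshold without Cd mouse 5 (log2 fold change 0.48, adjusted p = 0.0784), without Cd+Se mouse 14 (0.60, adjusted p = 0.0527), without Cd+Se mouse 15 (0.44, adjusted p = 0.0619) and with no filter on low values (adjusted p = 0.0521). Without both mice 14 and 15, a setting chosen after the data were seen, 0 of the 9 genes and 13 of 11747 genes tested passed, with log2 fold changes of 0.40 for Hnf4a, 0.53 for Nr1h4, 0.70 for Foxa3 and 0.82 for Ppara.

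Within the Cd+Se group, mice 14 and 15 lay at opposite ends for 5 of the 9 genes. Cebpa was at 187 TPM in mouse 14 and 84.4 in mouse 15, and Foxa2 at 15.8 and 3.92, whereas mice 13 and 16 were between them. The opposite order held for Cebpb, at 10.46 TPM in mouse 14 and 43.4 in mouse 15, for Nr1i2, at 18.5 and 38.7, and for Nr1i3, at 91.7 and 187. The coefficient of variation over the 4 Cd+Se mice was 57.3% for Cebpb and 57.9% for Foxa2, against 21.2% and 27.6% in control mice, and for Foxa2 it was as wide in Se mice, at 59.3%. For the 4 genes that differed from Cd it was between 13.6% and 22.4%.

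**Figure D3:**
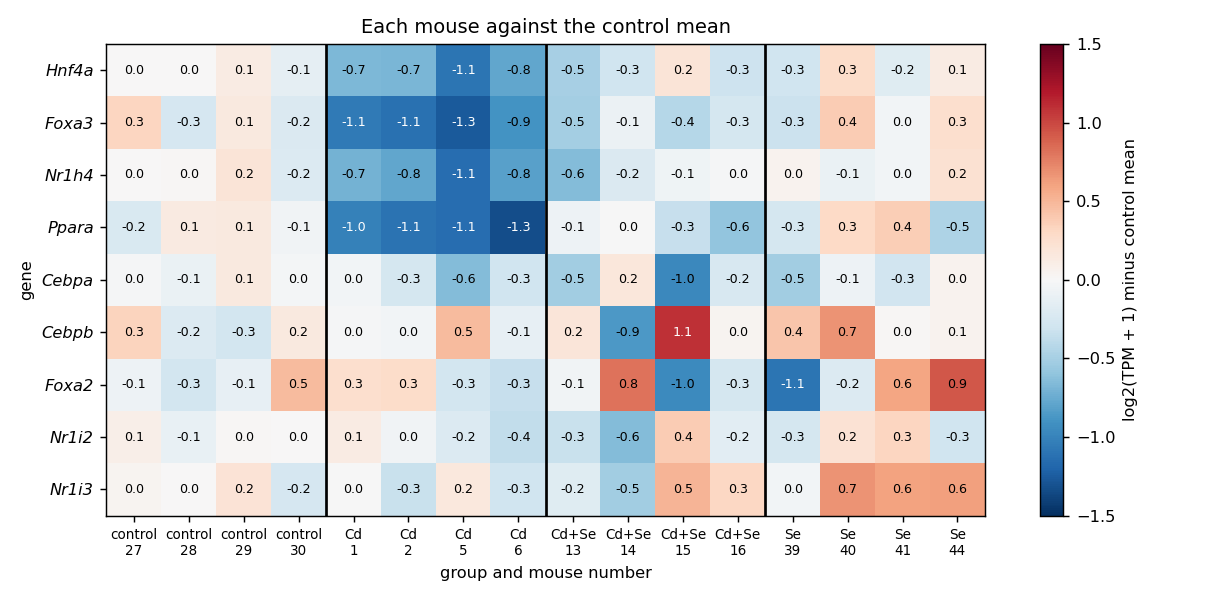
Log2(TPM + 1) of each gene (rows) in each of the 16 mice (columns, by group and mouse number), minus the mean of the 4 control mice; blue is lower and red is higher, with the difference printed to 1 decimal. The upper 4 rows are lower in all 4 Cd mice than in any mouse of another group, and mice 14 and 15 take opposite colours for Cebpa, Cebpb, Foxa2, Nr1i2 and Nr1i3.

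Between Cd+Se and control mice, 0 of the 9 genes passed, where 0.484% of all genes did. At an unadjusted p under 0.05 the limma count was 0 of 9 as well, where 10.9% of all genes were under it, so that the count says little about the 9. The means of the 4 genes lay between 78.8% (Foxa3) and 86.4% (Hnf4a) of control, all on the lower side, with intervals that included 0: -0.67 to 0.02 for Foxa3, -0.54 to 0.07 for Nr1h4, -0.63 to 0.13 for Ppara and -0.56 to 0.10 for Hnf4a. The estimate furthest from 0 was that of Cebpa, at -0.39 (interval -0.81 to 0.03). These intervals leave room for a level as high as in controls and for one clearly below it.

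Se alone against control gave 0 of 9 members and 0.0% of all genes past the threshold in limma. At an unadjusted limma p under 0.05 there was 1 of the 9, Nr1i3 (log2 fold change 0.46, exact permutation p = 0.114 on log2(TPM + 1), limma adjusted p = 1.0), and 454 of all 11766 genes (3.86%). Nr1i3 was at 128, 211, 200 and 202 TPM in Se mice 39, 40, 41 and 44, so that 3 of them were above every control mouse and mouse 39 was within the control range. The remaining 8 estimates ran from -0.21 for Cebpa to 0.29 for Cebpb.

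In mice on the Se diet, with and without Cd (Cd+Se against Se), 0 of 9 members passed, where 0.714% of all genes did, and 1 member, Foxa3, had an unadjusted limma p under 0.05 (log2 fold change -0.39, adjusted p = 0.387), which 10.9% of all genes had as well. All 9 estimates were negative, from -0.17 for Foxa2 to -0.43 for Nr1i3, around a median of -0.03 over all genes. Whether the effect of Cd differed between the diets was tested as the interaction in the same model. It was called for 0 of 9 members and for 1.04% of all genes (6.21% after median centring), with estimates of 0.91 for Ppara (interval 0.37 to 1.45, limma adjusted p = 0.0814), 0.69 for Foxa3 (0.20 to 1.19, adjusted p = 0.118), 0.60 for Hnf4a (0.13 to 1.07, adjusted p = 0.146) and 0.59 for Nr1h4 (0.16 to 1.02, adjusted p = 0.124). The unadjusted limma p was under 0.05 for these 4 of the 9 and for 21.3% of all genes. Without Se mouse 40 Ppara passed (1.02, limma adjusted p = 0.0459).

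Ratios within a library do not move with the scaling of that library, and 4 were formed between related genes and compared in 5 pairs of groups by exact permutation of the mice, two-sided, over 70 arrangements, whose smallest p is 0.0286. Of the 20 tests 1 reached that p, Nr1i2 to Nr1i3 in Se against control, and none passed after Benjamini-Hochberg adjustment over the 20. PXR transcript was 0.226 ± 0.032 (SD, n = 4) of CAR transcript in control mice and 0.164 ± 0.033 in Se mice, with no overlap (exact permutation p = 0.0286, adjusted p = 0.381). Foxa2 to Foxa3 averaged 0.190 ± 0.076 in control, 0.397 ± 0.110 in Cd and 0.223 ± 0.104 in Cd+Se mice, with overlapping ranges (exact permutation p = 0.0571 for the Cd mice against either of the other 2 groups, adjusted p = 0.381). Nr1h4 to Ppara, the receptor genes for bile acids and fatty acids, was at 2.91 ± 0.38 in control and 3.64 ± 0.54 in Cd mice (exact permutation p = 0.0857, adjusted p = 0.429). Cebpa to Cebpb was 8.56 ± 2.12 in control and 6.65 ± 1.97 in Cd mice, and in Cd+Se mice it ran from 1.94 to 17.8.

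The profiles of the genes over the 16 mice were compared by the root mean square difference of log2(TPM + 1) after centring each gene on its mean, a description in which the groups themselves take part. Hnf4a and Nr1h4 were the closest pair of the set, at 0.17, followed by Foxa3 and Nr1h4 at 0.24 and Hnf4a and Foxa3 at 0.25. Nr1i2 and Nr1i3, the xenobiotic sensors, were closer to each other (0.29) than to any of the other 7. Nr1i2 departed from its own mean by only 0.26 and Nr1i3 by 0.36. The 0.29 is to be read beside these departures, and whether these 2 genes varied together was not tested. Among all other protein-coding genes tested, the nearest to Hnf4a were Chp1 and Tgoln1 (0.09 each), to Nr1h4 Parp9 (0.09) and Rraga (0.11), to Foxa3 Wdr36 and Dtx3l (0.15 each) and to Ppara Slc10a5 (0.19) and Prpf8 (0.20). For Foxa2 the nearest were Osgin1 and Foxa1 (0.32 each), and for Cebpa Hdac11 and Slc25a37 (0.16 each). For Cebpb they were Rusc2 (0.23) and 1500011B03Rik (0.28), for Nr1i2 Cd1d1 (0.15) and Smpd2 (0.16), and for Nr1i3 Fmo1 (0.19) and Idh2 (0.21).

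The partners of these factors were followed in 3 lists written from general knowledge. List counts here and below are to be read beside all 11766 genes tested. Of these, 24.9% fell and 685 genes rose in Cd against control. In Cd+Se against Cd, 13.6% rose and 276 genes fell. A list count near these shares is no result about its list. Of 25 other nuclear receptors tested, 9 fell and 2 rose with Cd, and the counts under the 3 other scalings were 5 to 9 that fell and 3 to 4 that rose. Their median of -0.18 was close to that of all genes and turned to 0.02 after quantile normalization and 0.04 after centring. Rxra, whose product is the shared partner of FXR, PXR, CAR and PPARα on DNA, went from 93.4 ± 3.97 TPM in control to 44.8 ± 6.75 in Cd mice and was 73.9 ± 7.82 in Cd+Se and 83.8 ± 5.87 in Se mice. Its difference of -1.05 ± 0.11 (log2, SE; adjusted p = 5.01e-05 in limma) was of the size of those of Foxa3 and Ppara, and it passed in all 25 alternatives. The thyroid hormone receptor gene Thrb (10.1 ± 1.51 to 5.31 ± 1.02 TPM, log2 fold change -0.82) also fell and passed in all 25. Nr4a1, an immediate early receptor gene, rose (1.27 ± 0.66 to 8.29 ± 8.08 TPM, log2 fold change 1.69, limma adjusted p = 0.0366) and passed in 17 of 24 alternatives. When Cd+Se was compared with Cd, 6 of the 25 rose and 2 fell, against 3 and 0 without Cd+Se mouse 14, 4 and 1 without Cd mouse 5, and 5 and 0 without Cd+Se mouse 16. Rxra was higher (log2 fold change 0.72) and Nr0b2, which encodes the small partner SHP that FXR induces, was lower (-0.81, 22.1 ± 4.25 to 12.4 ± 3.69 TPM), as was the thyroid hormone receptor gene Thra (-0.65). Nr0b2 was also the second receptor gene that rose with Cd.

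Of 24 other liver transcription factors tested, 9 fell and 1 rose with Cd, and 4 to 8 fell and 1 to 3 rose under the other scalings. Onecut1, which encodes HNF6, fell most, from 17.5 ± 2.94 to 2.81 ± 1.90 TPM (-2.40 ± 0.77 in log2 units, SE; adjusted p = 0.027 in limma), and it passed in 19 of 25 alternatives. In Cd+Se mice it was at 15.1 ± 21.2 TPM, an SD larger than the mean. Srebf1, the lipogenic regulator, fell from 168 ± 19.6 to 64.9 ± 20.2 TPM (-1.40, passed in 16 of 25), and it was 63.6 ± 41.4 TPM in Cd+Se mice. Prox1, a partner of HNF4A that is needed for liver development, fell from 25.4 ± 4.21 to 9.89 ± 2.62 TPM (-1.30), and Creb3l3, which works with PPARα in fasting, from 135 ± 9.58 to 68.0 ± 5.35 TPM (-0.98); both passed in all 25. Without any 1 of Cd mouse 5, Cd mouse 6 or control mice 27 to 30, the number that fell was 4 or 5. From Cd to Cd+Se, 4 of the 24 rose, Prox1 (0.98), Zhx2 (0.70, 2.44 ± 0.72 to 4.52 ± 0.35 TPM), Creb3l3 (0.57) and the insulin-responsive factor gene Foxo1 (0.49). The glucocorticoid-induced factor gene Klf15, the 1 gene of the list that rose with Cd (0.66), was the 1 that fell (-0.66). Without Cd mouse 2 or 5 the counts were 3 rose and 0 fell, and after median centring 2 and 2.

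Of 18 coregulators, 9 fell and 0 rose with Cd, but the split depended on scaling, with 5 that fell and 4 that rose under quantile normalization and 4 and 5 under median centring. The corepressor gene Ncor1 (30.2 ± 1.86 to 15.5 ± 3.91 TPM, log2 fold change -0.94, limma adjusted p = 0.000866) fell in all 25 alternatives, as did the arginine methyltransferase gene Carm1 (-0.59). The coactivator gene Ncoa1 fell by 0.53 on the log2 scale and passed in 20 of 24. Without Cd mouse 5 3 fell and 1 rose, without control mouse 28 3 fell, and without control mouse 29 5 fell. From Cd to Cd+Se, 4 of 18 rose, among them Ncor1 (0.87), the corepressor subunit gene Tbl1xr1 (0.73) and the histone demethylase gene Kdm6a (0.54), and 0 fell, against 4 that rose and 3 that fell after quantile normalization or median centring.

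**Figure D4:**
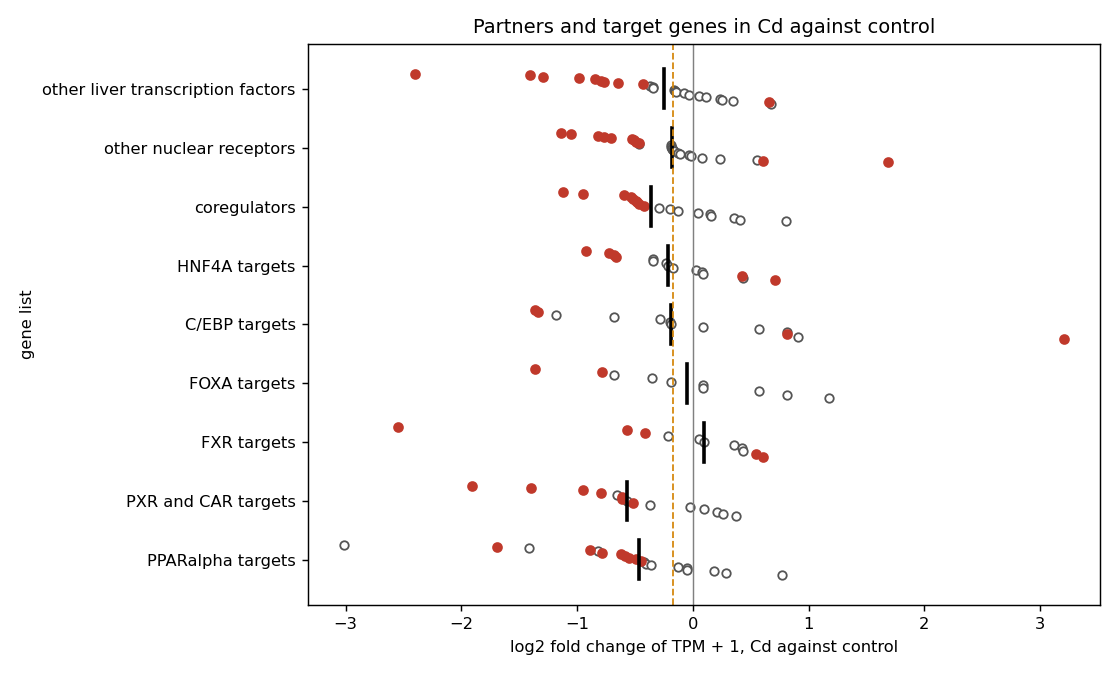
Log2 fold change of TPM + 1 in Cd against control (x axis) of the tested genes of 9 lists (y axis). Filled points have a limma adjusted p under 0.05, black bars are list medians, the grey line is 0 and the dashed line is the median of all genes tested. The medians of the PXR and CAR targets and of the PPARα targets lie furthest to the left. That of the FXR targets, a list of induced and repressed genes, lies to the right of 0.

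Known targets were listed for each factor in the same way, and their medians are to be read beside the -0.17 of all genes. Their counts are to be read beside the 24.9% of all genes that fell with Cd. Values under median centring are to be read beside the centred median of 0.05 and the 1804 of 11766 genes that fell there. Among 20 PPARα targets 8 fell and 0 rose with Cd, with a median of -0.47 (-0.25 under median centring, where 2 fell). Cpt1a and Cpt2, which carry long-chain fatty acids into mitochondria, fell from 93.6 ± 4.84 to 54.2 ± 7.77 TPM (log2 fold change -0.79) and from 55.7 ± 8.61 to 29.4 ± 2.74 TPM (-0.89), each past the threshold in all 25 alternatives. The thioesterase gene Acot1 fell from 21.9 ± 6.42 to 6.33 ± 3.14 TPM (-1.69, passed in 15). The number that fell was 3 to 5 without Cd mouse 5 or 6 or control mouse 27, 28 or 29 and 13 without Cd+Se mouse 15. Of the 20, 1 rose in Cd+Se against Cd, Cpt1a (0.77), while Cpt2 was at 35.1 ± 12.1 TPM in Cd+Se mice, and after median centring 1 rose and 3 fell.

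Of 15 PXR and CAR targets 7 fell and 0 rose, with a median of -0.56 (-0.34 under median centring, where 6 fell and 2 rose), although neither receptor gene passed the test. Alas1, the rate-limiting enzyme of heme synthesis, fell from 962 ± 113 to 256 ± 25.2 TPM (-1.905 ± 0.24 in log2 units, SE; adjusted p = 0.000161 in limma) and was 586 ± 185 TPM in Cd+Se mice. Por, the electron donor of microsomal cytochromes P450, fell from 180 ± 16.1 to 67.7 ± 1.63 TPM (-1.39) and was 168 ± 72.3 in Cd+Se mice. Cyp3a13 (-0.95) and Cyp2c29 (-0.79) fell as well, and all 4 passed in the 25 alternatives. Of the 15 estimates 11 were negative. Cyp3a11 did not pass (-0.66, limma adjusted p = 0.138), and it was at 999 ± 545 TPM in Se mice. Cyp2b10 was too low to test. Of the 15, 3 rose in Cd+Se against Cd, Por (1.20), Alas1 (1.15) and Cyp3a13 (0.92).

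The FXR targets went both ways: of 11 tested, 3 fell and 2 rose with Cd, with a median of 0.10. The list holds Cyp7a1, which FXR represses, beside genes that it induces, such as Nr0b2. Its count and median therefore give no direction of the FXR response. Slc51a and Slc51b, too low to test, averaged 0.225 and 0.39 TPM in control and 1.315 and 0.84 TPM in Cd mice. Slc51b was at 0.85 TPM in Se mice. Cyp7a1, the rate-limiting enzyme of bile acid synthesis that FXR represses through SHP, fell from 98.9 ± 26.4 to 17.2 ± 8.89 TPM (-2.55 ± 0.30 in log2 units, SE; adjusted p = 9.3e-05 in limma) in all 25 alternatives. Nr0b2 was higher (14.5 ± 4.52 to 22.1 ± 4.25 TPM, 0.60, limma adjusted p = 0.0477, passed in 10 of 25) and so was Fetub (0.55, passed in 19), while the phospholipid transporter gene Abcb4 (-0.57, passed in 9) and the bile acid ligase gene Slc27a5 (-0.41) were lower. Leaving out any 1 of 12 mice moved the number called to between 1 and 3, and only Cyp7a1 passed in every setting among those named. Cyp7a1 rose in Cd+Se against Cd (1.56, to 48.9 ± 10.3 TPM), Nr0b2 (-0.81) and the bile salt export pump gene Abcb11 (-0.65) fell, and in Se mice Cyp7a1 was at 167 ± 48.6 TPM.

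Of 15 HNF4A targets 4 fell and 2 rose with Cd, with a median of -0.21 that was 0.01 under median centring. Apom (234 ± 9.29 to 138 ± 65.9 TPM, log2 fold change -0.92), the coagulation gene F13b (-0.72), the lipase gene Lipc (-0.68) and the lipoprotein assembly gene Mttp (-0.66) fell, and the apolipoprotein gene Apoc3 (0.43) was among those that rose. F13b and Lipc passed in all 25 alternatives and Apom in 22. With Se beside Cd 4 of the 15 rose, Apom (1.06), F13b (0.72), Lipc (0.55) and Apob (0.42), and 2 fell, Apoc3 (-0.52) among them. After median centring the counts of this list were 4 fell and 4 rose in Cd against control, and 2 rose and 5 fell in Cd+Se against Cd. Of 13 C/EBP targets 2 fell and 2 rose: the urea cycle gene Cps1 (824 ± 52.3 to 325 ± 66.7 TPM, -1.36) and the gluconeogenic gene G6pc (450 ± 80.7 to 177 ± 31.9 TPM, -1.34) fell, and the acute-phase genes Lcn2 (19.3 ± 24.2 to 125 ± 56.9 TPM, 3.21) and Hp (2353 ± 444 to 4143 ± 723 TPM, 0.82) rose. G6pc and Hp each passed in 19 of 25 alternatives, and 1 fell and 1 rose without Cd mouse 5 or control mouse 28 or 29. Of 10 FOXA targets 2 fell and 0 rose, Cps1, which both lists hold, and Cpt1a, with a median of -0.05 that was 0.17 under median centring, and the same 2 genes rose in Cd+Se against Cd (0.87 and 0.77). Without Cd+Se mice 14 and 15, 0 genes of any of the 9 lists passed in Cd+Se against Cd. With only the Cd and Cd+Se mice in the fit, 1 gene rose in each of 3 lists. These were the other nuclear receptors, the C/EBP targets and the PXR and CAR targets. In the remaining lists 0 passed, so that most rises named above were not called in that setting.

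Markers of other liver cell types were read beside these results and beside the 24.9% of all genes that fell with Cd. Of 9 Kupffer cell and macrophage markers 7 fell with Cd, with a summed level of 158 to 196 TPM in control, 82.7 to 117 in Cd, 132 to 161 in Cd+Se and 111 to 207 in Se mice. Of 4 neutrophil markers tested 3 rose with Cd, S100a8, S100a9 and Retnlg, with a sum over all 8 of 6.67 to 16.9 TPM in control, 33.01 to 41.9 in Cd, 46.5 to 77.3 in Cd+Se and 5.92 to 9.97 in Se mice, while Ly6g, Mpo, Elane and Cxcr2 were under 1 TPM in every mouse. Of 10 hepatocyte markers 2 rose, Hpx and Apoc3, and 2 fell, Cps1 and Serpina1c, which became 5 and 1 after median centring and 1 and 1 without Cd mouse 5 or without control mouse 28, 29 or 30. Of 8 sinusoidal endothelial markers Stab1 rose and Stab2 and Kdr fell, but 0 fell after quantile normalization, after median centring, without Cd mouse 5 or without control mouse 28. Of 5 stellate cell markers tested 2 fell, Hgf and Reln (1 without Cd mouse 5 or 6 or control mouse 28 or 29, and 1 fell and 1 rose after median centring), and none of the 5 erythroid markers or the 1 cholangiocyte marker tested passed; the T and B cell markers were too low to test, at a sum of at most 6.99 TPM. No marker was at 0 in all 16 mice. The macrophage sum was thus lower in the Cd mice, in the same direction as the 4 member genes, and its part in their values was not tested, nor was that of the high mitochondrial share in Cd mouse 5 beyond the omission of that mouse.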

How the data were processed

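Liver RNA of 16 mice, 4 per group, was analysed from 1 deposited table. The authors trimmed, aligned and quantified the reads and deposited TPM per gene, a level scaled to transcript length and to the same total in every library. The submitters' processing notes name fastp, HISAT2 and StringTie without versions, and they name the genome build GRCh38, a human build, for mouse libraries. Strandedness and how the 2 sequencing names listed for each mouse were joined are not given in the sources used here. TPM keep no depth, so no counting interval is given. Groups were taken from the sample titles.

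The 11766 of 57010 genes that averaged 1 TPM or more were tested on log2(TPM + 1) with limma 3.58.1 in R 4.3.3, using 1 mean per group, a trended variance shared by the 4 groups and Benjamini-Hochberg adjustment over all genes tested per comparison, with a threshold of 0.05. A fold change on this scale understates that of low genes. The limma p-values set a group difference against the spread between mice, as estimated from all 4 groups and drawn toward the trend over genes. Ratios were compared by exact two-sided permutation in SciPy 1.17.1. The fit was tested on simulated data. The 9 genes and all lists were chosen with earlier results of these data known. Named list genes were, per list, up to 4 with the largest absolute log2 fold change among those called in Cd against control and up to 2 in Cd+Se against Cd. Genes named beyond these were chosen after their values were seen. They complete a count of 5 or fewer or show listed genes that were not called or not tested. Some list genes that this rule names are not reported here. Likeness was named for the 2 nearest protein-coding genes. The 25 alternatives covered the pseudocount (0.1), the filter (none, or a mean of 5 TPM), quantile normalization, median centring, protein-coding genes alone, variance without a trend, only the groups compared, each of the 16 mice left out in turn and, added after seeing the data, Cd+Se mice 14 and 15 left out together. A setting that leaves out only mice of groups not compared cannot move a log2 fold change, only its spread and adjustment. The same holds for the filters, the variance without a trend and only the groups compared. Gene positions came from GENCODE M21 and promoters from RefSeq, both GRCm38. Protein sequences were not used here.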

Additional observations from a re-analysis of the deposited data

Results flagged for a closer look

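Sets of 4 mice in which 1 value stood far from the other 3 were looked for among the 9 genes and 4 ratios, and 3 of 52 sets were found, where chance gives about 1 in 20. Cebpb in Cd mouse 5 was at 27.93 TPM, and its gap to the nearest of the other 3 Cd mice was 0.846 of the range of the group. This is the library with the high mitochondrial share. Nr1i3 in Se mouse 39, at 127.91 TPM, lay below the other Se mice with a gap of 0.872 of the range. The ratio of Nr1i2 to Nr1i3 in Cd+Se mice, from 0.161 to 0.207, had 1 low mouse with a gap of 0.864 of the range.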

How the results depend on the processing

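The fall of Hnf4a, Foxa3, Nr1h4 and Ppara in Cd against control passed in each of the 25 alternatives, and 0 of 9 genes passed in Cd+Se against control, Se against control or Cd+Se against Se under any of them. The number called in Cd+Se against Cd moved from 4 to 2 with only the groups compared and to 0 without Cd+Se mice 14 and 15 (3 with no filter or without Cd mouse 5, Cd+Se mouse 14 or Cd+Se mouse 15, Hnf4a being lost in each), where over all genes 1876 calls became 66 with only the groups compared and 13 without the 2 mice; these settings estimate the spread from fewer mice. With no filter 1131 genes were called, without Cd mouse 5 762 and without Cd+Se mouse 14 730. The interaction ran from 0 to 1 called among the 9 when each mouse was left out, and over all genes from 122 to 731 under centring, 524 under quantile normalization, 26 without a filter and 2 without Cd+Se mice 14 and 15; single mice moved it as far, to 3 without Cd+Se mouse 14, 15 without Se mouse 39, 16 to 19 without control mouse 27, 28 or 29, and 349 without Se mouse 40. Calls over all genes in Cd+Se against control (57) became 101 under centring, 104 under quantile normalization 18 with only the groups compared, 98 without Cd+Se mouse 15 and 26 without control mouse 29, and those in Cd+Se against Se (84) 126 under quantile normalization, 31 at a mean of 5 TPM, 11 with only the groups compared, 190 without Cd+Se mouse 15 and 28 without Se mouse 44. No paired analysis was possible because the groups share no mouse numbers.

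Some uncalled differences turned sign, and the cause was not tested. In Cd against control, Foxa2 was 0.19 under quantile normalization, 0.20 under centring and 0.0164 with protein-coding genes rescaled, Nr1i2 was 0.0229 and 0.097 under the first 2 of these, and Nr1i3 was 0.10 under centring. In Cd+Se against Cd, Cebpb was -0.095 under quantile normalization and -0.15 under centring, and Nr1i3 was -0.045 under centring. The interaction for Cebpa was -0.049 under centring, and the log2 ratio of Cebpa to Cebpb in Cd+Se against Se was -0.001 with a pseudocount of 1. With each mouse left out, the log2 differences in Cd against control ran from -0.0625 to 0.18 for Cebpb and from -0.12 to 0.14 for Foxa2. In Cd+Se against Cd they ran from -0.26 to 0.12 for Cebpa, -0.29 to 0.37 for Cebpb, -0.41 to 0.19 for Foxa2, -0.26 to 0.0864 for Nr1i2 and -0.0092 to 0.33 for Nr1i3. For the interaction they ran from -0.051 to 0.33 for Cebpa, -0.58 to 0.0749 for Cebpb, -0.54 to 0.14 for Foxa2 and -0.25 to 0.0939 for Nr1i2. With 4 mice a group, TPM without depth and 1 library standing apart in the Cd group, smaller differences than the intervals given could not be resolved.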
